A study of Mus musculus with 23 samples.

Results

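Ribosome-bound RNA of cholinergic cells of the Gars C201R mutant spinal cord was compared with the background of the same precipitation in mutants that lack Cre. The comparison holds 12 of the 23 libraries of the series: the 6 whose source label is RplC201RChAT and the 6 labelled NegCtrlC201R. All 12 came from spinal cord at 2 weeks of age on the B6.CgxB6.129 background, and all carried 1 copy of the haemagglutinin-tagged ribosomal protein gene (Rpl+/-) and 1 of the mutant allele (C201R+/-). The mutant Cre libraries also carried 1 ChAT-Cre allele (Chat+/-), and the mutant no-Cre libraries did not (Chat+/+). ChAT-Cre is active in every cell type that uses the choline acetyltransferase gene, so preganglionic neurons and cholinergic interneurons are tagged with motor neurons. Whether each library came from its own animal is not in the labels. The p-values below therefore reflect variation between libraries, which may be technical.

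In a RiboTag mouse, Cre switches a ribosomal protein, Rpl22, to a form with a haemagglutinin tag, and an antibody then pulls down ribosomes of the recombined cells with the RNA they carry. Without Cre no tagged protein is made, and what is recovered is RNA that sticks to the beads. A higher level with Cre therefore marks RNA on tagged ribosomes, and a lower level marks RNA that makes up more of the background. Dominant mutations of Gars, the glycyl-tRNA synthetase gene, cause inherited neuropathy of motor axons, and the series title places these mice before disease onset. In such bulk precipitates, fewer cells of a type and less RNA per cell cannot be told apart.

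Total counts ran from 11696371 to 14511342 in the Cre and from 12042577 to 19671837 in the no-Cre libraries. Ribosomal RNA and ribosomal RNA-like models took 53.0% to 75.3% of counts with Cre and 65.8% to 95.6% without, which left 2927073 to 6237380 and 594360 to 4886726 other counts. The 3 shallowest libraries were no-Cre replicates 1 (1576431 such counts), 4 (1427454) and 5 (594360). Titles begin with a number of unstated meaning. Number 18405 is borne by Cre replicates 4 and 6 and by no-Cre replicate 2, and no other number occurs in both groups. Cre replicates 4 and 6 stood apart from the other 4 Cre libraries: they were the lowest in each of the 4 markers given next and the highest in markers of glia. Levels below are CPM (counts scaled to a common library size) over library sizes adjusted by trimmed means (TMM), and fold changes are log2, Cre minus no Cre. A gene is said to rise or fall where edgeR's adjusted p was under 0.05.

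The label holds for Chat and the 3 markers Chodl, Slc10a4 and Prph, which were above all no-Cre libraries in every Cre library. Chat (choline acetyltransferase, ENSMUSG00000021919, chromosome 14, 32408203 to 32465989 of GRCm38) stood at 14.8, 38.1 and 53.2 CPM (lowest, median and highest) with Cre and at 1.15, 2.66 and 9.25 CPM without. The lowest Cre library, replicate 6, lay above the highest no-Cre library. Chat rose by 3.62 (SE 0.46, adjusted p = 3.48e-05). Chodl (chondrolectin, a marker of fast motor neurons, chromosome 16, 78930948 to 78951733) stood at 38.6, 81.8 and 106 CPM with Cre and at 2.63, 3.31 and 4.09 CPM without, a rise of 4.51 (SE 0.28, adjusted p = 2.79e-07). Slc10a4, a transporter-like protein of cholinergic vesicles (chromosome 5, 73006883 to 73012955), stood at 27.2, 64.5 and 84.1 CPM against 0.66, 1.69 and 2.45 CPM, a rise of 5.16 (SE 0.36, adjusted p = 6.83e-07). Prph, the intermediate filament peripherin (chromosome 15, 99055174 to 99058978), stood at 69.4, 176 and 201.3 CPM against 7.84, 11.7 and 14.1 CPM, a rise of 3.72 (SE 0.31, adjusted p = 2.86e-06). None of these 3 overlapped between the groups either. Within number 18405 alone, 2 Cre libraries against 1 no-Cre library and hence without a test, the log2 ratios were 3.11 for Chat, 3.77 for Chodl, 4.20 for Slc10a4 and 3.31 for Prph. Rpl22, the gene that carries the tag, stood at 9.55 to 15.9 CPM with Cre and 12.3 to 23.7 CPM without, groups that overlapped, and did not pass the test (-0.56, SE 0.23, adjusted p = 0.0675). Its value was -0.73 without number 18405 (adjusted p = 0.0397), and 0.79 with library totals as the only scaling.

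**Figure D1:**
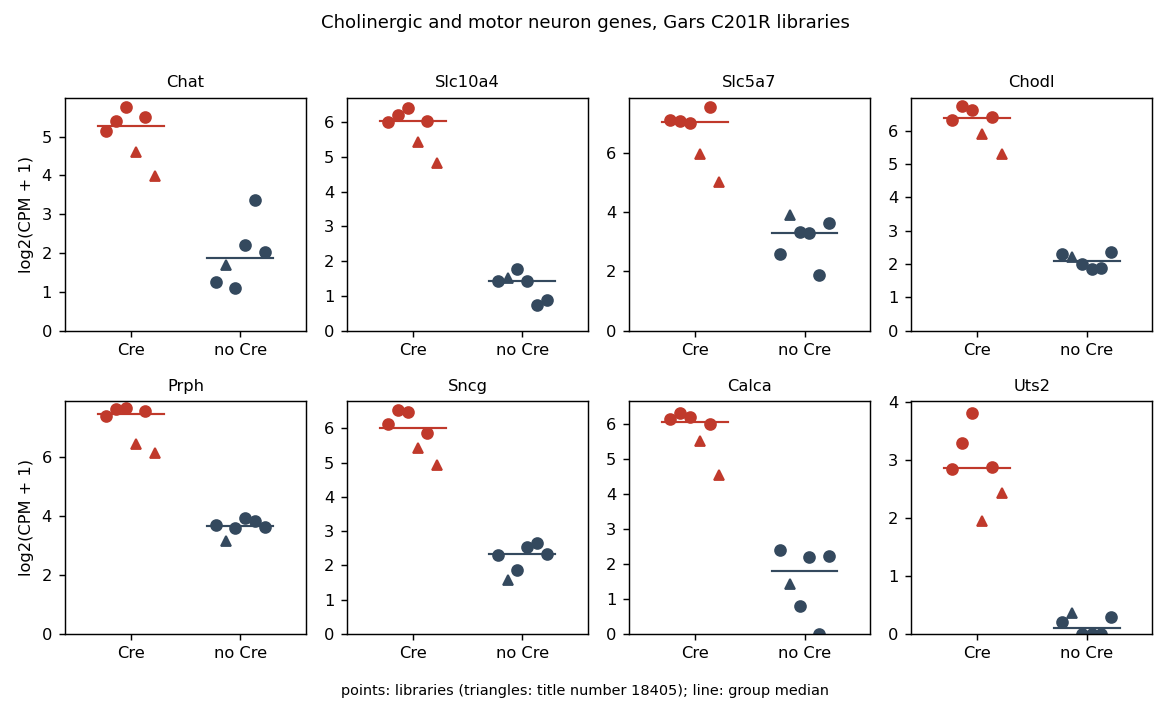
Each panel plots log2(CPM + 1) of 1 gene in the 6 mutant Cre (red) and 6 mutant no-Cre (blue) libraries, with triangles for title number 18405 and a line at each group's median. The red points lie above the blue points in all 8 panels, and the 2 red triangles are the lowest red points of Chat, Slc10a4, Chodl and Prph.

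Across all 12741 genes tested, 4247 passed (33.3%): 1800 rose with Cre (14.1%) and 2447 fell (19.2%). In 1115 genes (8.75%) every Cre library lay above every no-Cre library, and in 1066 (8.37%) every one lay below. Within number 18405, 1758 of the 1800 risen genes and 2346 of the 2447 fallen genes had a ratio of the same sign, in libraries that also entered the test. The split depends on single libraries and on scaling. It turned to more rises than falls without no-Cre replicate 1 (2355 and 1970), 4 (2526 and 2005) or 5 (2676 and 2313), or without Cre replicate 6 (2298 and 2287). With library totals as the only scaling, 3248 genes rose (25.5%) and 275 fell (2.16%), and the median log2 fold change over all genes went from -0.14 to 1.13, a shift of 1.26. A positive value in these data is therefore best read against the median of all genes. Medians of gene lists are given below beside that median of -0.14, and beside 1.13 where the scaling turns their sign. The filter on low counts lets a gene enter through 1 group alone, so genes near 0 in 1 group had to be high in the other to be tested.

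Most tested genes of acetylcholine signalling rose. Of 8 listed genes 7 were matched and 6 tested, of which 4 rose and 1 fell, with a median of 2.51 against -0.14 for all genes. Slc5a7, the choline transporter that refills the terminal, stood at 31.9, 133 and 190 CPM with Cre and at 2.64, 8.92 and 13.9 CPM without. It rose by 3.70 (SE 0.44, adjusted p = 2.11e-05), with no overlap. Ache, the esterase that ends the signal, rose less, by 1.41 (SE 0.35, adjusted p = 0.00564), and its ranges of 26.0 to 62.5 and 8.50 to 36.4 CPM overlapped. Motor neuron transcription factors were a mixed list. Of 15 members 11 were tested, 3 rose and 1 fell, against 14.1% and 19.2% of all genes. Their median was -0.41, or 1.14 with totals as the only scaling. Mnx1 (HB9), which fixes motor neuron identity, stood at 2.93, 4.32 and 6.06 CPM with Cre and at 0, 0.20 and 1.25 CPM without, a rise of 3.40 (SE 0.58, adjusted p = 0.000381). Isl1, its partner in that programme, rose by 4.04 (SE 0.89, adjusted p = 0.00256) and overlapped in 1 library, Cre replicate 6 at 0.93 CPM. Esrrb, found in slow motor neurons, rose by 2.50 (SE 0.54, adjusted p = 0.00223). Onecut2 fell, from 1.32 to 11.5 CPM without Cre to 0.27 to 2.501 CPM with Cre (-2.64, SE 0.59, adjusted p = 0.00296).

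Not all factors of this mixed list passed the filter on low counts. A pair of those that did not were picked after their values were seen, and the rest of those are not shown. Isl2 had 371 counts over the Cre and 7 over the no-Cre libraries, a ratio of 23.1 after scaling (95% exact counting interval 11.1 to 57.8). Lhx3 had 135 counts against 0, at least 19.6-fold higher against a floor of 3 counts over the no-Cre group. These intervals and floors take in only the error of counting.

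Most genes that mark motor neuron subtypes or do their work rose. All 22 listed were tested, 16 rose and 1 fell, with a median of 2.11, and 11 did not overlap. Among all genes 14.1% rose, 19.2% fell and 8.75% lay wholly higher with Cre. The list shares Uts2, Uts2b, Calca, Calcb and Chodl with the 12 largest rises of named genes. Uts2b, a urotensin peptide gene (chromosome 16, 27353322 to 27370239), stood at 1.93, 4.42 and 8.20 CPM with Cre and at 0, 0 and 0.17 CPM without. Its 724 counts against 4 give a ratio of 78.8 (95% exact counting interval 30.6 to 289.9), and edgeR a rise of 6.14 (SE 0.68, adjusted p = 1.57e-05). Its relative Uts2 (chromosome 4, 150997097 to 151001810) stood at 2.83, 6.26 and 13.0 CPM against 0, 0.08 and 0.28 CPM, a rise of 5.56 (SE 0.66, adjusted p = 2.12e-05). Both urotensin genes were separate from background in each of the 6 Cre libraries, at low levels. Calca and Calcb encode calcitonin gene-related peptides, which motor neurons release at the muscle. Calca stood at 22.3, 65.7 and 78.6 CPM with Cre and at 0, 2.62 and 4.20 CPM without, a rise of 4.59 (SE 0.49, adjusted p = 1.38e-05). Calcb rose by 4.52 (SE 0.58, adjusted p = 3.42e-05). Sncg, gamma-synuclein, stood at 29.3, 63.3 and 92.1 CPM against 1.99, 3.99 and 5.29 CPM, a rise of 4.14 (SE 0.35, adjusted p = 2.86e-06). None of these 3 overlapped.

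The other 7 of the 12 largest rises were Slc10a4, given above, and 6 more. Adm2, a stress-induced peptide hormone of the calcitonin family, had 161 counts with Cre and 0 without, at least 23.4-fold higher against 3 counts over the no-Cre group (edgeR adjusted p = 0.000161). Its level of 0.69 to 1.53 CPM was low in every Cre library. Layn, a hyaluronan receptor, rose by 4.55, Grin3b, an NMDA receptor subunit of motor neurons, by 4.39, and Gna14, a G protein alpha subunit, by 4.20. C1ql2, a secreted synaptic protein, rose by 4.34 from at most 0.15 CPM to 0.85 to 2.71 CPM. Cda, cytidine deaminase, rose by 4.20, from at most 0.78 to 2.01 to 8.79 CPM. The Cre and no-Cre libraries did not overlap in any of these 6 genes.

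Genes of the axon and its transport rose in part. For comparison, 14.1% of all genes rose and 19.2% fell. Of 17 neurofilament and cytoskeleton genes, 9 rose and 1 fell, with a median of 0.97. Stmn2, a tubulin regulator of growing and injured axons, stood at 132, 319.6 and 391.7 CPM with Cre and at 21.8, 37.2 and 46.6 CPM without, a rise of 2.98 (SE 0.30, adjusted p = 1.07e-05). Tubb3, neuronal beta-tubulin, rose by 3.00 (SE 0.32, adjusted p = 1.43e-05). Among 19 transport motors 7 rose and 2 fell (median 0.38), led by the dynein chains Dync1i1 (1.90) and Dync1li1 (1.41) and the kinesin light chain Klc2 (1.37). Synaptic vesicle genes gave 10 rises and 2 falls of 20 (median 0.66). Vamp1, the vesicle SNARE of the neuromuscular terminal, stood at 229, 473 and 520 CPM against 37.7, 105 and 128 CPM and rose by 2.08 (SE 0.31, adjusted p = 0.000126). Snap25 rose by 1.72 and Rab3a by 1.83. Axon injury genes included 7 that rose and 1 that fell of 11 tested among 14 (median 1.71). There Ecel1, a protease induced in injured motor neurons, rose by 3.43 (SE 0.44, adjusted p = 3.61e-05) and Gap43, a growth cone protein, by 1.71 (SE 0.24, adjusted p = 6.87e-05).

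Excitability genes rose in part, and few fell. Over all genes tested 14.1% rose and 19.2% fell. Of 23 potassium and related channel genes, 8 rose and 2 fell (median 0.18). Kcnk3, a leak channel, stood at 11.7, 31.9 and 46.3 CPM with Cre and at 1.71, 4.25 and 5.24 CPM without, a rise of 2.88 (SE 0.36, adjusted p = 2.94e-05). Kcnh7 fell by 2.54 (SE 0.34, adjusted p = 5.84e-05). Of 21 sodium and calcium channel genes 5 rose and 1 fell (median 0.07), among them Cacna2d3 (2.33). Transmitter receptors gave 10 rises and 1 fall of 24 (median 0.80), among them Grin1 (1.39) and Glrb (1.24, and 0.29 within number 18405). Receptors for trophic and guidance factors gave 6 rises and 0 falls of 18 tested among 20 (median 0.46). Ret, the receptor for GDNF-family ligands, stood at 33.7, 99.7 and 131 CPM against 7.45, 10.0 and 26.4 CPM and rose by 2.95 (SE 0.38, adjusted p = 3.89e-05). Nrp2 rose by 1.70 (SE 0.31, adjusted p = 0.000623). Of 31 genes named for inherited neuropathy or motor neuron disease, 30 were tested, 18 rose and 1 fell (median 0.81). Sod1 rose by 1.73 (SE 0.22, adjusted p = 3.38e-05) and Chchd10 by 1.86 (SE 0.25, adjusted p = 5.95e-05).

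**Figure D2:**
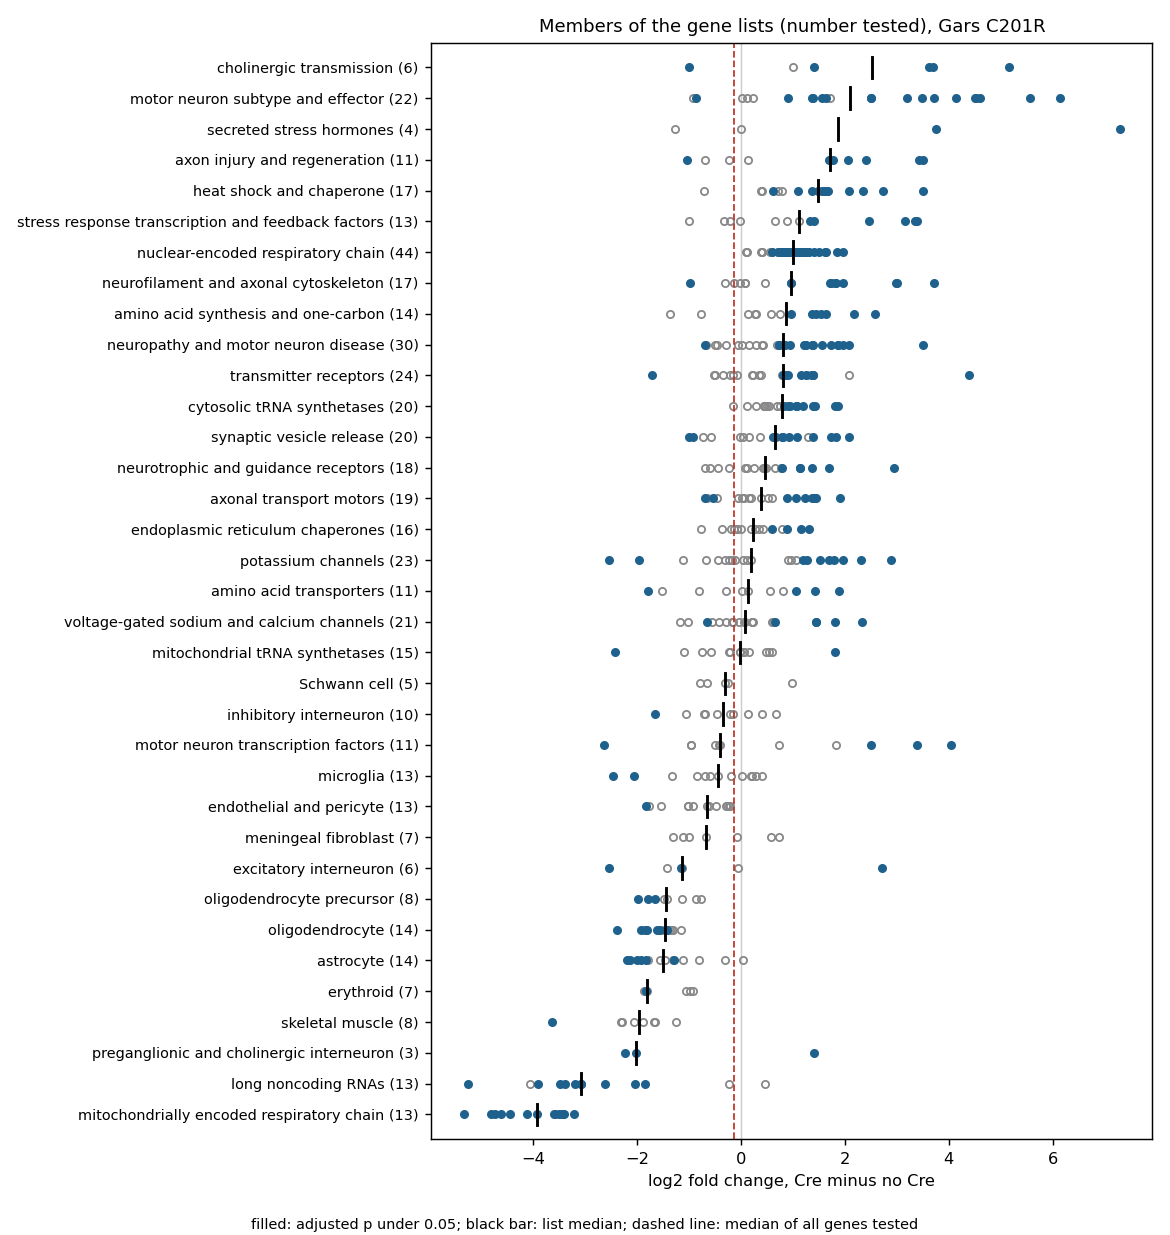
Each row is a gene list with its number of tested members in brackets, and each point the log2 fold change of 1 member (x axis, Cre minus no Cre). Filled points passed the test, black bars are list medians and the dashed line is the median of all genes, -0.14. The medians run from -3.93 for mitochondrially encoded genes to 2.51 for cholinergic transmission.

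The integrated stress response is a programme in which the factor ATF4 raises genes for amino acid supply, tRNA charging and secreted hormones. It is known to be active in motor neurons of Gars mutant mice. Several of its genes stood above background in the mutant Cre libraries. Fgf21, a hormone made by stressed tissue (chromosome 7, 45613886 to 45615490), stood at 5.73, 10.5 and 22.8 CPM with Cre and at 0, 0.38 and 3.59 CPM without. All 6 Cre libraries lay above all 6 no-Cre libraries, and Cre replicate 3 was the highest. Its 1713 counts against 41 give a ratio of 18.2 (95% exact counting interval 13.3 to 25.4), and edgeR a rise of 3.75 (SE 0.64, adjusted p = 0.000355). Fgf21 and Adm2 were the 2 of 4 hormone genes that rose (median 1.87, the same with Adm2 at its bound, against -0.14 for all genes). Among all genes 14.1% rose and 19.2% fell. Gdf15, also a stress hormone, had 202 counts spread over the 6 Cre libraries, and 82 without Cre, all in replicate 4. It was therefore not called (-1.26, SE 1.29, adjusted p = 0.475), and without that 1 library it was called higher (7.67, adjusted p = 0.000269), a fitted value against 0 counts.

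Promoters of these genes were searched for TGATGNAAT, the letters bound by ATF4 with C/EBP partners, on both strands of windows of 300 bases from RefSeq on GRCm38.p6. The 5 stress lists hold 65 symbols, of which 49 matched a promoter, and 6 of these held the letters (12.2%), against 317 of 32851 promoters (0.965%). Over the genes tested here the share was 51 of 9265, 0.55%, and over those that rose 10 of 1331, 0.751%. Shown are the 4 of the 6 whose genes rose, as the 250 bases before the start site, with the matched letters, or their reverse complement, in capitals. They are Fgf21 (chr7:45615491-45615740, minus strand, letters starting 140 bases before the start site), Aars (chr8:111033592-111033841, plus strand, 113 bases), Gars (chr6:55037751-55038000, plus strand, 31 bases) and Pycr1 (chr11:120643749-120643998, minus strand, 103 bases).
Fgf21: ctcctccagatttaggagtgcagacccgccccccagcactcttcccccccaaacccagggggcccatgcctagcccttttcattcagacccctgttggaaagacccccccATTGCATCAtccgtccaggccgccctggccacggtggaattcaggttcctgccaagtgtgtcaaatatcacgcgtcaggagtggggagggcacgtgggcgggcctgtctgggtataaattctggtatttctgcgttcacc
Aars: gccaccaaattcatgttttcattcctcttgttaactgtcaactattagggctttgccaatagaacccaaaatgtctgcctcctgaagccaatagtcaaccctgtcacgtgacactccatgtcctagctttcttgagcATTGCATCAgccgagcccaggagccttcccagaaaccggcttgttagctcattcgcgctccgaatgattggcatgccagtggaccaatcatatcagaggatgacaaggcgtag
Gars: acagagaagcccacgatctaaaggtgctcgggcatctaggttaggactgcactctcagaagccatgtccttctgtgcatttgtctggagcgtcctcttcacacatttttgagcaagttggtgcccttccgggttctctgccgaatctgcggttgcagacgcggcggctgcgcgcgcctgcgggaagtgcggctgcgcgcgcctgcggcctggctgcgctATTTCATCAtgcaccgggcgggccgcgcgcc
Pycr1: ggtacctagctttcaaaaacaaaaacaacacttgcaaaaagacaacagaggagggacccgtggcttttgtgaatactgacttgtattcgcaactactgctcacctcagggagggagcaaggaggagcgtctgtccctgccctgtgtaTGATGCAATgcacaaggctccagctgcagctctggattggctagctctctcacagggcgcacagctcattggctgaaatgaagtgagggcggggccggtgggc
The stretches of Fgf21, Aars and Gars hold the letters on the opposite strand, and that of Pycr1 on the gene's own strand. Iars and Nupr1 held the letters too and are not shown. A match is a description of the letters only. The lists were chosen as stress response genes with earlier results known, so their share is not a result of these libraries.

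Of 16 stress factors and feedback genes 13 were tested, 6 rose and 0 fell, against 14.1% and 19.2% of all genes. Their median was 1.11, against -0.14 for all genes. Atf4 itself stood at 38.3, 44.2 and 59.3 CPM with Cre and at 12.5, 16.6 and 24.5 CPM without, a rise of 1.41 (SE 0.22, adjusted p = 0.000152). Sesn2, an inhibitor of mTORC1, stood at 4.33, 8.05 and 16.6 CPM against 0.24, 1.07 and 1.98 CPM, a rise of 3.15 (SE 0.44, adjusted p = 7.48e-05). Cdkn1a, a cell-cycle inhibitor (chromosome 17, 29090976 to 29100727), stood at 31.2, 33.3 and 58.7 CPM against 1.32, 6.98 and 10.3 CPM, a rise of 2.47 (SE 0.32, adjusted p = 3.53e-05). These 3 genes did not overlap between the groups. The remaining 3 that rose, named after their values were seen, were Chac1, a glutathione-degrading enzyme (3.35), the glycogen-binding protein Stbd1 (3.39) and the factor Ddit3 (CHOP, 1.32, and 0.07 within number 18405).

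Enzymes of amino acid synthesis and one-carbon metabolism followed, with 7 rises and 0 falls of 14 (median 0.86). The shares over all genes were 14.1% rises and 19.2% falls. Asns, asparagine synthetase, stood at 19.0, 40.5 and 47.5 CPM with Cre and at 5.00, 8.25 and 13.2 CPM without, a rise of 2.18 (SE 0.28, adjusted p = 4.16e-05). Mthfd2, a mitochondrial folate enzyme, rose by 2.59 (SE 0.43, adjusted p = 0.000315), Aldh18a1, which starts proline synthesis, by 1.63, and Pycr1, which completes it, by 1.54. Cre replicates 4 and 6 were the lowest Cre libraries in Asns and Mthfd2. Amino acid transporters gave 3 rises and 1 fall of 11 (median 0.13). Slc7a1, which takes up arginine and lysine, rose by 1.42 (SE 0.28, adjusted p = 0.00124), and Slc38a2 by 1.05. Within number 18405 the ratio of Slc7a1 was 0.32, and with the title number as a block it did not pass (0.32, adjusted p = 0.719). Slc7a11, the cystine exchanger, fell by 1.79 (SE 0.42, adjusted p = 0.00435). Without number 18405 it stood at -1.22 (adjusted p = 0.0588). Cytosolic tRNA synthetases gave 10 rises and 0 falls of 20 (median 0.80). In wild type, treated below, they gave 15 rises and 0 falls of 20 (median 1.03). Gars stood at 50.8, 75.0 and 110 CPM with Cre and at 14.1, 19.2 and 29.9 CPM without, without overlap, a rise of 1.87 (SE 0.26, adjusted p = 6.11e-05). Its counts do not separate the mutant from the normal allele. Nars rose by 1.81, Lars by 1.42 and Aars by 1.39. Their mitochondrial counterparts gave 1 rise and 1 fall of 15 tested among 16 (median -0.02).

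**Figure D3:**
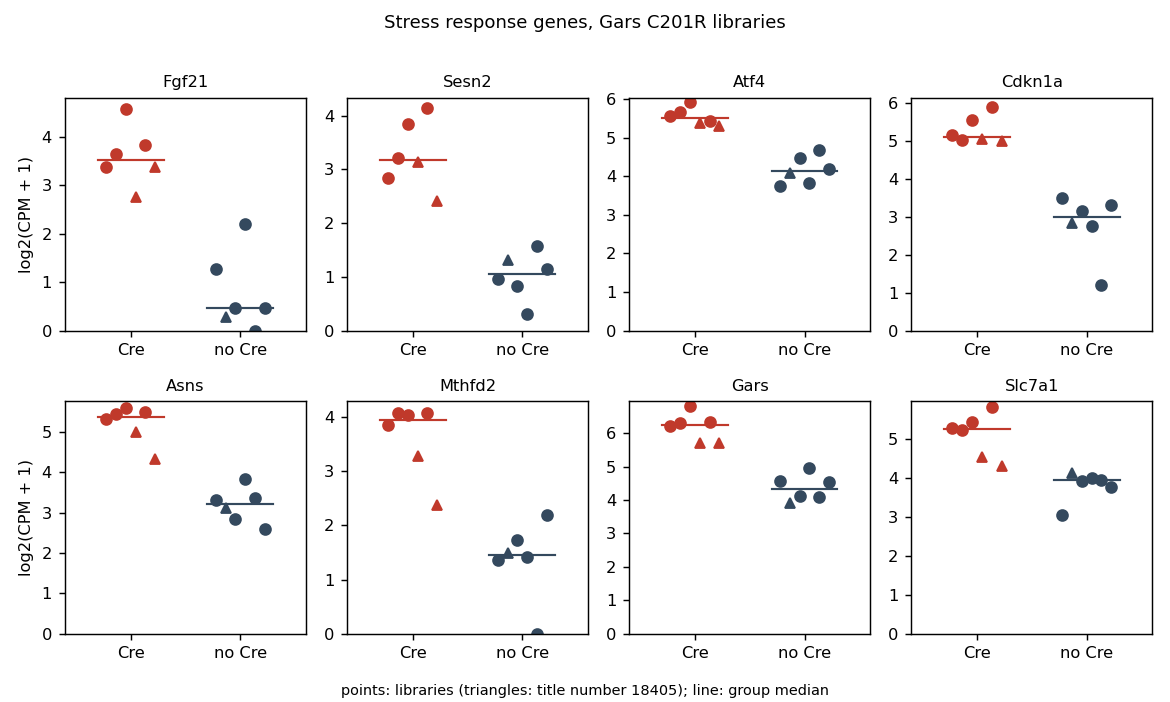
Each panel plots log2(CPM + 1) of 1 stress response gene in the 6 mutant Cre (red) and 6 mutant no-Cre (blue) libraries, with triangles for title number 18405 and a line at each group's median. All red points of the 8 genes lie above all blue points, and the red triangles of Asns, Mthfd2, Gars and Slc7a1 are the lowest red points.

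Chaperones rose as well. Of 17 heat shock genes 12 rose and 0 fell, with a median of 1.48. Among all genes 14.1% rose and 19.2% fell. Hspb1, a small heat shock protein whose mutations cause neuropathy, stood at 20.2, 41.2 and 68.2 CPM with Cre and at 0.66, 2.69 and 8.14 CPM without, a rise of 3.49 (SE 0.48, adjusted p = 6.68e-05). Hspd1 rose by 1.48 and Dnaja1 by 1.38. Of 16 endoplasmic reticulum chaperones and regulators 4 rose and 0 fell (median 0.22), among them Dnajb9 (1.32), the factor Xbp1 (1.16) and Pdia3 (0.89).

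Respiratory chain genes went opposite ways according to the genome that encodes them. Of 44 nuclear genes 33 rose and 0 fell, with a median of 1.00, while all 13 mitochondrial genes fell, with a median of -3.93, each without overlap. Among all genes 14.1% rose, 19.2% fell and 8.37% lay wholly lower with Cre. In wild type 42 of the 44 nuclear genes rose (median 1.73) and all 13 mitochondrial genes fell (median -3.22). Cox7c, a nuclear subunit of complex IV, stood at 28.6, 34.1 and 39.3 CPM with Cre and at 8.18, 9.69 and 10.1 CPM without, a rise of 1.85 (SE 0.19, adjusted p = 1.07e-05). Cox7a2 rose by 1.65 and Cyc1, cytochrome c1, by 1.41. mt-Nd6, a complex I subunit, stood at 11.8, 25.7 and 59.1 CPM with Cre and at 357, 864 and 3121 CPM without, a fall of 5.33 (SE 0.58, adjusted p = 1.46e-05). mt-Nd4l fell by 4.12 and mt-Co3 by 3.59. Mitochondrial ribosomal RNA, outside this list, took 1.81% to 7.34% of all counts with Cre and 45.6% to 65.0% without. Mitochondrial messages are translated on ribosomes inside the organelle, which do not contain Rpl22.

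Long noncoding RNAs fell more often than they rose. Of 339 long noncoding genes tested 191 fell (56.3%) and 7 rose, against 2139 and 1749 of 12110 protein-coding genes. In the list of named noncoding RNAs, 14 of 17 were matched and 13 tested, 10 fell and 0 rose (median -3.09). Miat, a nuclear RNA of neurons, stood at 7.94, 9.99 and 12.7 CPM with Cre and at 51.3, 63.0 and 73.4 CPM without, a fall of 2.63 (SE 0.20, adjusted p = 1.25e-06). Snhg11, a host of small nucleolar RNAs that GENCODE M21 types as protein coding, fell by 3.39 (SE 0.31, adjusted p = 6.81e-06) and Neat1, the scaffold of nuclear paraspeckles, by 3.08 (SE 0.30, adjusted p = 9.87e-06). None of these 3 overlapped. The list keeps its sign with totals as the only scaling (median -1.79, 8 falls), where Miat no longer passes.

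The 12 largest falls were low with Cre in all 6 libraries, and each was highest in no-Cre replicate 4 or 5, the shallowest libraries. A pair of models named Metazoa_SRP, copies of the signal recognition particle RNA whose reads cannot be told apart, led with -7.61 each. The others were Fcrl6 (-6.71), Muc4 (-6.38), Rhox8 (-6.23), Zfp457 (-6.22), Nkx2-1 (-6.19), H2-Q4 (-6.09), Bmp8b (-6.04), Muc19 (-5.99), Pou1f1 (-5.75) and Vmn1r-ps128 (-5.62). Pou1f1, a pituitary factor, reached 70.1 CPM in 1 no-Cre library against a median of 7.66, and stood at 0.20 to 0.59 CPM with Cre. H2-Q4 shares sequence with other histocompatibility genes and its counts are uncertain.

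Markers of other neurons gave calls in both directions, few of them in the inhibitory list. Of 10 tested inhibitory interneuron genes among 12, 0 rose and 1 fell (against 14.1% and 19.2% of all genes), with a median of -0.34, or 0.80 with totals as the only scaling. The fall was that of Slc6a5, the glycine transporter of inhibitory terminals, at 15.3, 25.1 and 30.2 CPM with Cre and 65.4, 74.9 and 81.2 CPM without (-1.66, SE 0.21, adjusted p = 3.38e-05), with no overlap. Of 6 tested excitatory interneuron genes among 12, Slc17a6, the vesicular glutamate transporter, fell by 1.15 (SE 0.26, adjusted p = 0.00283) and Lmx1b by 2.55. The third call was a rise: Cck, a peptide gene, stood at 25.8, 35.3 and 40.8 CPM against 3.97, 4.68 and 6.97 CPM (2.72, SE 0.23, adjusted p = 2.92e-06). The median of these 6 was -1.14, or 0.03 with totals only. In the short list of preganglionic and cholinergic interneuron genes 3 of 6 were tested, 1 rose and 2 fell (median -2.02). Nos1, nitric oxide synthase of preganglionic neurons, rose by 1.41 (SE 0.32, adjusted p = 0.00316), while Zeb2 fell by 2.02 (SE 0.30, adjusted p = 0.000109).

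Markers of oligodendrocytes, their precursors and astrocytes fell more often than all genes (19.2%), but unevenly over the Cre libraries. Of 14 oligodendrocyte genes 7 fell (median -1.46), of 8 tested precursor genes 3 (-1.45) and of 14 astrocyte genes 6 (-1.51), and 0 of these 36 rose. Mobp, a myelin protein of oligodendrocytes, stood at 50.1, 111 and 261 CPM with Cre and at 330, 486 and 705 CPM without, a fall of 1.93 (SE 0.38, adjusted p = 0.00116). Its groups did not overlap. Slc1a2, the glutamate transporter of astrocytes, stood at 40.3, 87.0 and 130.3 CPM against 196, 357 and 623 CPM and fell by 2.201 (SE 0.38, adjusted p = 0.000433). Aqp4 fell by 1.92, and of the precursor genes Sox10 fell by 1.99, Gpr17 by 1.79 and Pdgfra by 1.65. The call of Pdgfra was lost without any 1 of 7 libraries.

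Cre replicates 4 and 6, both of number 18405, stood highest of the Cre libraries in all 4 glial lists. The summed CPM of the 14 oligodendrocyte markers was 5779 and 7914 there, 893 to 2365 in the other 4 Cre libraries, and 8521 to 19262 without Cre. Without the 3 libraries of number 18405, 14 of 14 oligodendrocyte, 7 of 8 precursor and 13 of 14 astrocyte genes fell. Their medians were -2.70, -2.74 and -2.87, and 2359 of all 12934 genes tested fell. No title number occurs in both groups of that fit, so Cre and title number cannot be told apart in it. With the title number as a block the 3 medians were -0.43, -0.46 and -0.03. Microglial markers differed too. Their sum reached 218 CPM in Cre replicate 4, above every no-Cre library (62.9 to 135 CPM), and 74.1 CPM in replicate 6, against 10.96 to 34.2 CPM in the other 4. In all 12 libraries 2 of 13 tested microglial genes fell (15.4%, below the 19.2% of all genes). They were Cx3cr1 (-2.47, adjusted p = 0.0293) and Siglech (-2.07, adjusted p = 0.0343). The list had a median of -0.43 (0.92 with totals only), and without number 18405 8 of 11 fell (median -2.70). Siglech lost its call without any 1 of 8 libraries, and Cx3cr1 without any 1 of 4, and within number 18405 their ratios were -0.08 and -0.53. Schwann cell markers summed to 458 and 674 CPM in these 2 replicates, above every no-Cre library (49.7 to 360 CPM), against 84.3 to 112 CPM in the other Cre libraries.

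Fibroblast and muscle markers were also highest in these 2 of the Cre libraries. Vascular markers were not: their sum was 256 CPM in replicate 6, 136 CPM in replicate 1 and 106 CPM in replicate 4. For comparison, 19.2% of all genes fell, and 2359 of 12934 without number 18405. Of 13 endothelial and pericyte genes 1 fell, and without number 18405 6 of 12 (medians -0.65 and -1.89). Of 7 tested fibroblast genes 0 fell, and without it 4 of 6 (-0.68 and -2.12). Of 5 tested Schwann cell genes 0 fell, and without it 3 of 5 (-0.30 and -2.68). With totals as the only scaling the medians over the 12 libraries were 0.12, 0.68 and 0.85 for these 3 lists. Skeletal muscle markers summed to 131 and 136 CPM in replicates 4 and 6 and to 2.74 to 6.62 CPM in the other 4 Cre libraries. Ttn, the giant muscle protein, was the 1 of 8 tested muscle genes that fell (-3.63, SE 0.89, adjusted p = 0.00561), and within number 18405 its ratio was -0.13. Erythroid genes gave 1 fall of 7, and 5 of 7 without number 18405 (medians -1.81 and -2.32). Of the markers in these lists only Pifo, an ependymal gene, was at 0 in every Cre library. Whether the RNA of other cells in replicates 4 and 6 takes part in the levels of other genes was not tested. Of the 106 named genes with a call, 105 kept it without number 18405, all except Slc7a11. In that fit every title number belongs to 1 group only, so it cannot separate Cre from title number.

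**Figure D4:**
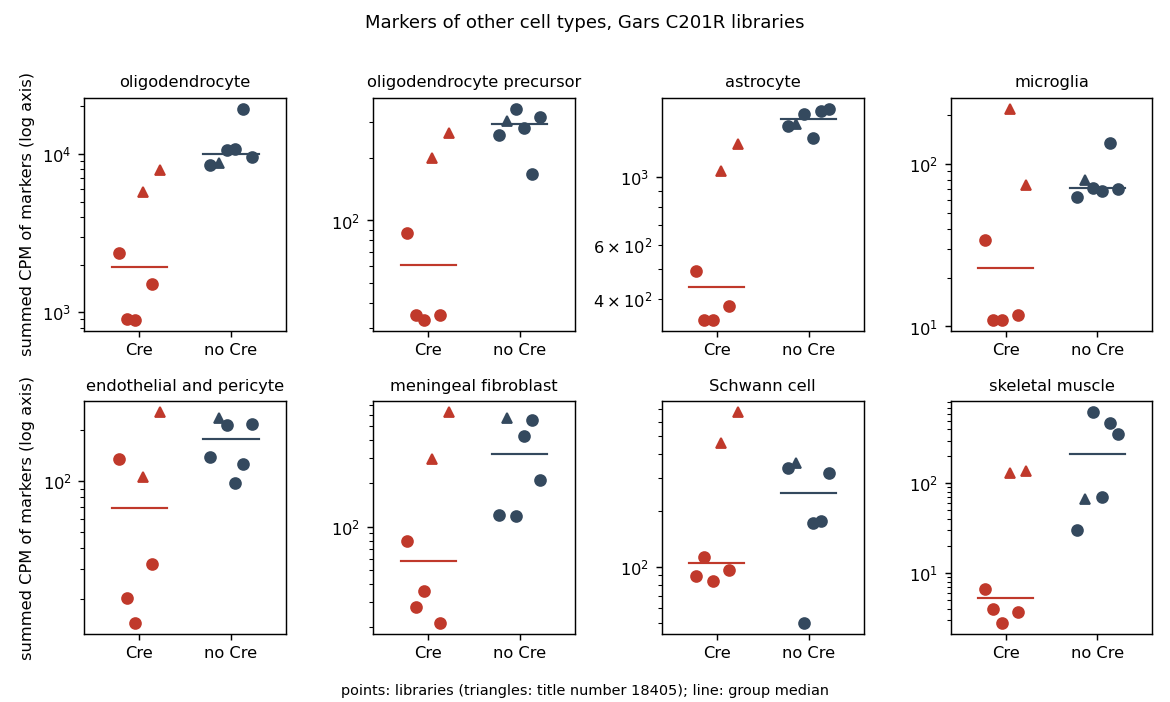
Each panel plots the summed CPM of the markers of 1 cell type (log axis) in the 6 mutant Cre (red) and 6 mutant no-Cre (blue) libraries, with triangles for title number 18405 and a line at each group's median. The 2 red triangles lie above the 4 red circles in 7 of 8 panels, and in the endothelial panel 1 circle, Cre replicate 1 at 136 CPM, lies between them.

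The wild-type comparison, 5 libraries with ChAT-Cre against 6 without, shares no library with the mutant one and shows how far these differences also occur with normal Gars. Its libraries, labelled RplChAT and NegCtrlWT, also came from spinal cord at 2 weeks of age. In wild type 2503 of 12485 genes rose (20.0%) and 3235 fell (25.9%). Of the genes that rose, 1398 were shared, which is 77.7% of the mutant and 55.9% of the wild-type list. Of those that fell, 1838 were shared, 75.1% and 56.8%. Across the 12097 genes tested in both, the fold changes had a Pearson correlation of 0.81, given as a description. A single gene was called in opposite directions, mmu-mir-6240 (-2.36 in mutants, 1.69 in wild type), a short model whose mutant value was 0.20 with totals as the only scaling and 0.39 within number 18405. The difference between the genotypes did not pass for it (adjusted p = 0.321).

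Tested directly over all 23 libraries, the Cre effect differed between the genotypes in 3 of 14468 genes (0.0207%). No wild-type library bears title number 18405, so genotype and title number cannot be told apart in the mutant libraries that bear it. Cdkn1a had the smallest p. On a scale common to all libraries it stood at 29.4, 31.8 and 56.0 CPM in mutant Cre and at 1.17, 6.41 and 9.47 CPM in mutant no-Cre libraries. In wild type it stood at 8.24, 11.1 and 15.1 CPM with Cre and at 11.1, 14.8 and 24.7 CPM without. The lowest mutant Cre library thus lay above every other library. Its Cre effect was 2.47 in mutants and -0.49 in wild type, and the difference was 3.10 (SE 0.44, adjusted p = 0.00146). With library totals as the only scaling it was 4.19 and did not pass (adjusted p = 0.546). Clic4, a chloride channel family protein (chromosome 4, 135213969 to 135272814), stood at 28.1, 43.4 and 61.9 CPM in mutant Cre and at 9.22, 12.7 and 24.2 CPM in wild-type Cre libraries, without overlap. Without Cre it stood at 25.3 to 58.6 CPM in mutants and 55.6 to 78.6 CPM in wild type. The difference in Clic4 was 1.90 (SE 0.35, adjusted p = 0.0437), and it lost its call without number 18405 (adjusted p = 0.221). The third, the pseudogene Gm6984, was named after its values were seen: it had 140 counts in wild-type Cre, 5 in wild-type no-Cre, 0 in mutant Cre and 48 in mutant no-Cre libraries (adjusted p = 0.039).

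The stress response genes were unlike each other in wild type. Asns (2.50, adjusted p = 0.000843), Sesn2 (2.79, adjusted p = 0.00644), Chac1 (1.98, adjusted p = 0.0163) and Gars (1.78, adjusted p = 0.000664) also rose there, while Atf4 stood at 0.40 (adjusted p = 0.267). None of these 5 passed the test of the difference. Fgf21 had 3 counts over the wild-type Cre and 3 over the wild-type no-Cre libraries, against 1713 and 41 in mutants. Adm2 had 0 and 0 counts in wild type against 161 and 0 in mutants, and Gdf15 had 0 and 2 against 202 and 82. The Fgf21, Adm2 and Gdf15 messages were thus at or near 0 in both wild-type groups, where they did not pass the filter on low counts. The tests of the difference in Cre effects were not past the threshold (Fgf21 adjusted p = 0.524, Adm2 1.00, Gdf15 0.865), and wild-type values near 0 leave that contrast poorly determined (SE 1.75 for Fgf21).

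Next in order came Fam129a, a translation regulator (3.09, adjusted p = 0.0831), and Slc7a1 (1.91, adjusted p = 0.0838), followed in the other direction by Nkiras1 (-1.59, adjusted p = 0.128) and Cd24a (-1.70, adjusted p = 0.321), none of which passed. Slc7a1 rose by 1.42 in mutants and stood at -0.35 in wild type (adjusted p = 0.293). Nkiras1 rose in both, by 1.38 and 3.13. C1qb, a microglial gene, had a difference of 4.23 (adjusted p = 0.321), and on the common scale it ran from 0.43 to 19.9 CPM in mutant Cre libraries, highest in replicate 4. By list, the median difference over tested members was 1.67 for 14 stress factors, of which Cdkn1a alone passed, and 1.12 for amino acid synthesis, against 0.12 for all genes. Their medians in wild type were -0.50 and -0.47. The microglial and Schwann cell lists had larger median differences, 2.94 and 2.75, with 0 genes called. Among mutant Cre libraries both lists summed highest in replicates 4 and 6, whose title number no wild-type library bears. The median difference of the cytosolic tRNA synthetases was 0.05. Heat shock genes gave 11 rises and 1 fall of 16 in wild type (median 1.54), with a median difference of 0.03. Axon injury genes gave 6 rises and 0 falls of 11 there (median 1.59), with a median difference of -0.12.

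**Figure D5:**
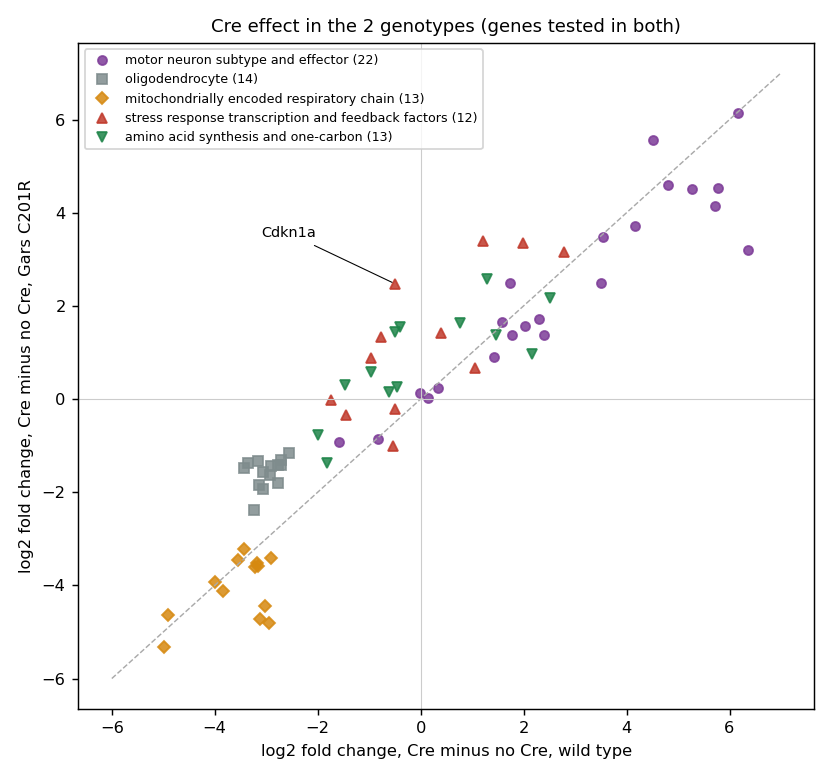
Each point is a gene of the motor neuron subtype, oligodendrocyte, mitochondrially encoded, stress factor or amino acid synthesis list that was tested in both genotypes. Its Cre effect is plotted in wild type (x axis) and in Gars C201R (y axis), both as log2 fold change, and the dashed line marks equal effects. Mitochondrially encoded genes lie near the line at negative values. Motor neuron genes reach its upper end, but not all of them rose. The 14 oligodendrocyte genes lie above the line at negative values, and Cdkn1a sits at -0.49 and 2.47.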

How the data were processed

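RNA precipitated with tagged ribosomes was sequenced from 23 spinal cord samples, of which 12 form the main comparison. Bowtie2 2.2.0 and RSEM 1.2.12 are named, without their roles, per the submitters' processing notes. The deposited expected counts (estimated counts per gene, not normalised for depth) were rounded. Which build and annotation they used is not stated in any source at hand. Positions come from GENCODE M21 (GRCm38), in which 37607 of the 38924 identifiers were found.

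Tests used edgeR 4.0.16 in R 4.3.3: filterByExpr (minimum count 10, minimum total 15), TMM factors, quasi-likelihood tests and Benjamini-Hochberg adjustment over all genes tested, at 0.05. Each fit held its own 2 groups, and that of the genotype difference all 23 libraries. Over 30 pairs of replicates chi-square divided by its degrees of freedom was at least 23.4, so no library was a copy. Replicate numbers follow the order of the samples and pair nothing. The fitting code was tested on simulated data.

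The comparison and the gene lists were chosen with earlier results of these data known. Of 547 symbols in 37 lists 542 matched. Lists are described by counts and medians. Named genes are 6 fixed ones, the 12 largest rises and falls with at least 1 CPM, leaving out gene models without a name, sex-linked and ribosomal RNA genes, the 8 smallest p in each direction of the genotype difference and up to 3 or 4 list members by p, of which not all are reported. Alternatives were RLE factors, totals only, no ribosomal RNA, DESeq2 1.42.0, limma 3.58.1 (voom), robust estimation, other filters, title-number block, leaving out number 18405, a sex-linked covariate, all libraries, both backgrounds and leaving out each library. Leaving out the 3 shallowest no-Cre libraries, and totals only in wild type, were added after the data were seen.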

Additional observations from a re-analysis of the deposited data

Results flagged for a closer look

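In 21 of 218 groups of 6 libraries, 1 library lay far from the rest (log2(CPM + 1) of a named gene, or a property of the library). The cut-off is set for about 1 in 20 in independent, normally distributed values. These groups share libraries and hold values at 0, so their count cannot be set against that share. Most were no-Cre libraries, among them the shallow replicates 1, 4 and 5. The total of no-Cre replicate 1 was 19.7 M counts, the highest of the 6. No-Cre replicate 5 was low in Cdkn1a (1.22), Vamp1 (5.27), Cacna2d3 (0.73) and Nrp2 (1.58), and high in Cx3cr1 (5.66) and Ret (4.78). No-Cre replicate 4 was high in Layn (1.95), Gdf15 (4.37) and Stbd1 (2.12) and low in Pdia3 (3.70). No-Cre replicate 1 was low in Slc7a1 (3.06) and high in Isl1 (1.17) and Sod1 (5.74), replicate 2 was high in Uts2b (0.22) and Grin3b (0.83), and replicate 6 was low in Snhg11 (8.24).

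With Cre, replicate 6 was low in Isl1 (0.95), replicate 3 high in Chchd10 (7.35), replicate 5 high in Muc4 (0.31) and replicate 1 high in Zfp457 (0.26). The Cre effect differed between the genotypes for Cdkn1a (3.10), Clic4 (1.90) and Gm6984 (-12.91, a fitted value with 0 counts in mutant Cre libraries).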

How the results depend on the processing

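The count of 4247 genes (1800 higher, 2447 lower) became 6990 (3145 and 3845) with limma-voom and 8175 without a filter on low counts (6028 lower). It ran from 3451 to 4989 without any 1 library. With totals only, 3248 were higher and 275 lower. Without the 3 shallowest no-Cre libraries 3103 were higher. No library is paired by its number. With the title number as a replicate block, which leaves only number 18405 to compare the groups, 598 genes were called (157 higher, 441 lower), 568 of them also called without the block, and 40 of 106 named genes kept their call.

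Totals only cost 18 of the 106 named calls, all of them falls.

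The 3 genes differing between genotypes became 42 with DESeq2, 169 with limma-voom, 1 with totals only, 1 without the shallow libraries, and 1 to 8 without any 1 library. Cdkn1a was called in each of these except with totals only (adjusted p = 0.546), while Clic4 lost its call there, without number 18405, without the shallow libraries, and without most single libraries. In wild type 5738 calls became 906 (404 higher, 502 lower) with totals only.

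Signs turned for Rpl22 (0.79 with totals only, 0.34 with the block), the difference of Nkiras1 (0.00403 with totals only) and Gdf15 (1.41 with totals only, 4.29 with limma-voom, 6.70 with the block, 7.91 without the shallow libraries, and from -1.56 to 7.67 without any 1 library, the highest without no-Cre replicate 4). Signs of the Cre effect also turned for mmu-mir-6240 (0.20 with totals only, 0.38 with the block, 0.15 without the shallow libraries), Cd24a (-0.017 with the block) and Clic4 (0.831 with totals only, 0.0157 with the block). For C1qb, not called, it turned to -1.39 with limma-voom, -0.066 with the no-Cre libraries of both genotypes, -0.078 without the shallow libraries and -1.43 without number 18405, and ran from -0.903 (without Cre replicate 4) to 0.443 without any 1 library. The cause was not tested. Depth outside ribosomal RNA limits the no-Cre levels of low genes.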
